A study of Mus musculus with 6 samples.

Results

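The genes described here are 33 transcripts by which lymphocytes are recognised, followed in macrophages sorted from the mouse peritoneal cavity. They were taken by symbol from a table of 48709 genes and comprise 20 B cell genes, 7 T cell genes, 4 natural killer (NK) cell genes, and Cd5 and Cd2, which more than one lymphocyte lineage carries. The libraries came from Zeb1 (+/-) mice, which carry 1 altered allele of the transcription factor gene Zeb1, and from wild-type mice. There were 3 libraries of each genotype, and 2 mice were pooled for each library. Both genotypes were C57BL/6, aged 6 to 8 weeks and untreated, and in both the cells were sorted by flow cytometry for F4/80 and CD11b, a pair of surface proteins of macrophages. The labels do not describe the Zeb1 allele, and nothing in them limits it to macrophages, so that lymphocytes of these mice may carry it too.

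B cells recognise antigen through a receptor made of immunoglobulin heavy and light chains and the signalling pair CD79A and CD79B, and their identity is held by the transcription factors PAX5 and EBF1. T cells recognise antigen through a receptor that signals through the CD3 chains and the kinase LCK, and NK cells kill without such a receptor, by granzymes released from granules. The peritoneal cavity holds many B cells beside its macrophages, among them B-1 cells, which carry CD11b, and of which the B-1a cells also carry CD5. Some B cell genes, such as the kinases of the receptor pathway, are also used by macrophages.

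Levels are given as CPM, which are counts scaled to the size of the library. Library totals ran between 17859872 and 42165006 counts, so that 1 CPM stood for 17.9 to 42.3 counts. Zeb1 itself was at 3.85, 3.45 and 3.62 CPM in Zeb1 (+/-) replicates 1, 2 and 3, against 5.44, 7.56 and 7.22 CPM in wild-type replicates 1, 2 and 3, so that the groups did not overlap (log2 fold change −0.89, SE 0.16, adjusted p = 0.0522 by the quasi-likelihood test of edgeR). The macrophage genes were high in every library: Adgre1, which encodes F4/80, lay between 2604 and 2646 CPM in Zeb1 (+/-) libraries and between 2159 and 2230 CPM in wild-type libraries. Itgam, which encodes CD11b, lay between 4688 and 5362 CPM in Zeb1 (+/-) libraries and between 4705 and 5025 CPM in wild-type libraries. Small structural RNAs split the libraries in a way that genotype did not: they summed to 43.6, 45.5 and 44.3 CPM in the Zeb1 (+/-) libraries, against 4.14, 8.69 and 42.2 CPM in wild-type replicates 1, 2 and 3.

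Among the 33 genes, those of B cells made up most of the summed CPM. The sums were not scaled for the number or length of the genes. The 20 B cell genes summed to 206, 198 and 175 CPM in the Zeb1 (+/-) libraries, against 255, 230 and 407 CPM in wild-type replicates 1, 2 and 3. The ratio of the means was 0.649, and 0.796 without wild-type replicate 3. Bank1, whose groups overlapped, was then left out after its values had been seen. The other 19 summed to 133, 118 and 99.8 CPM in the Zeb1 (+/-) libraries, against 183, 163 and 325 CPM in wild-type replicates 1, 2 and 3. All Zeb1 (+/-) sums were below all wild-type sums, and wild-type replicate 3 stood far above the other wild-type libraries. The means were 116.7 ± 16.5 CPM in Zeb1 (+/-) libraries and 224 ± 88.5 CPM in wild-type libraries (SD, n = 3 each), a ratio of 0.522, which became 0.676 without wild-type replicate 3. The 7 T cell genes summed to 2.62, 2.81 and 2.04 CPM in the Zeb1 (+/-) libraries, against 4.75, 1.95 and 3.08 CPM in the wild-type libraries, and these ranges overlapped. The 4 NK cell genes had 3, 6 and 1 counts in total in the Zeb1 (+/-) libraries, against 9, 4 and 2 counts in the wild-type libraries. In pooled RNA of this kind, fewer cells of a type and less RNA per cell cannot be told apart.

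**Figure D1:**
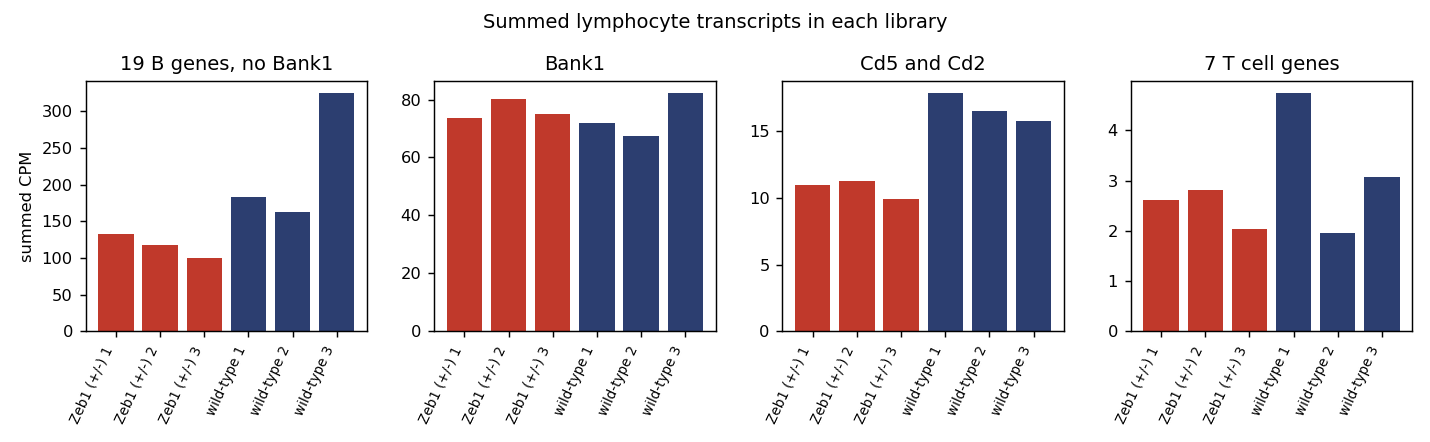
Summed CPM per library (y axes, each with its own scale) for 19 B cell genes without Bank1, for Bank1, for Cd5 and Cd2 and for 7 T cell genes, as 1 bar per library with Zeb1 (+/-) libraries left of wild-type libraries. The B cell sum is highest in wild-type replicate 3 at 325 CPM, whereas the sum of Cd5 and Cd2 is highest in wild-type replicate 1 at 17.9 CPM.

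Of the 33 genes, 23 passed the filter on low counts and were tested with all 12940 genes of the table that did. Cxcr5 and Cd2 were lower in Zeb1 (+/-) libraries at an adjusted p under 0.05, none was higher, and 21 did not pass the threshold; of all tested genes, 0.587% were called, 0.433% lower and 0.155% higher. Among the 18 tested B cell genes, 1 was called lower, and the median log2 fold change was −0.93, beside −0.000384 over all tested genes. At an unadjusted p under 0.05, 15 of the 18 were lower, beside 8.26% of all tested genes. In 15 of the 18 every Zeb1 (+/-) library was below every wild-type library, beside 10.3% of all tested genes. The number of B cell genes called depended on the model: 9 were called lower by DESeq2, which gave 1 of the 18 no adjusted p and called 1.87% of all tested genes lower, 13 without the filter on low counts, with 1.49% of all genes called lower, and 8 when the model held the structural RNA split, with 0.209%. Under that split the Zeb1 (+/-) libraries share their level of structural RNA with wild-type replicate 3 alone, so the wild-type side of that comparison is 1 library, the one in which most B cell genes peak. With any 1 of the 6 libraries left out edgeR called 0 of them, while 12 to 17 were lower at an unadjusted p under 0.05, beside 4.95% to 8.71% of all tested genes. The shares of all tested genes called lower at the adjusted threshold were then 0.113%, 0.0383% and 0.697% without Zeb1 (+/-) replicates 1, 2 and 3, and 0.346%, 0.00757% and 0.372% without wild-type replicates 1, 2 and 3.

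**Figure D2:**
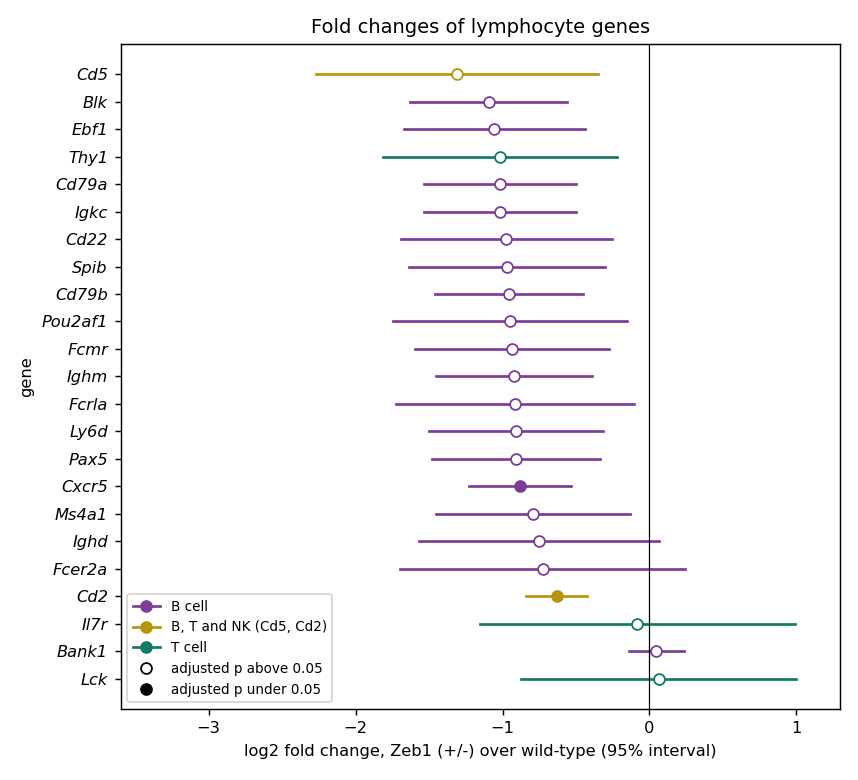
Log2 fold change of Zeb1 (+/-) over wild-type (x axis) with its 95% interval for the 23 tested lymphocyte genes (y axis), coloured by lineage. Filled points mark Cxcr5 and Cd2, whose adjusted p was under 0.05, while Bank1, Il7r and Lck lie close to 0.

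Of the B cell genes, Ighm and Igkc were the most abundant per length. Ighm, the constant region of the IgM heavy chain (chr12:113418558-113422730, minus strand, GRCm38), averaged 39.8 CPM per kb of exon over the 6 libraries, and Igkc, the constant region of the kappa light chain (chr6:70726435-70726966, plus strand), averaged 28.9 CPM per kb. Ighm was at 61.1, 50.2 and 44.4 CPM in the Zeb1 (+/-) libraries, against 80.7, 71.6 and 142 CPM in the wild-type libraries (log2 fold change −0.92, SE 0.23, adjusted p = 0.133). Igkc was at 11.3, 10.5 and 8.59 CPM in the Zeb1 (+/-) libraries, against 18.7, 14.2 and 28.9 CPM in the wild-type libraries (log2 fold change −1.02, SE 0.23, adjusted p = 0.0988). For both, the groups did not overlap and wild-type replicate 3 was highest, and neither passed the threshold. Ighd, the IgD heavy chain of mature naive B cells, was at 1.28, 1.21 and 1.25 CPM in the Zeb1 (+/-) libraries, against 1.65, 1.28 and 3.56 CPM in the wild-type libraries, where replicate 2 fell within the Zeb1 (+/-) range (log2 fold change −0.75, adjusted p = 0.375). Ighm exceeded Ighd by a factor of 35.6 to 47.6 in Zeb1 (+/-) libraries and of 40.0 to 56.0 in wild-type libraries.

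Cd79a, the signalling chain of the B cell receptor (chr7:24897381-24902197, plus strand), was at 9.44, 8.46 and 7.04 CPM in the Zeb1 (+/-) libraries, against 13.9, 12.8 and 24.0 CPM in the wild-type libraries. The means were 8.31 ± 1.21 CPM and 16.9 ± 6.19 CPM for Zeb1 (+/-) and wild-type (SD, n = 3 each), with a log2 fold change of −1.02 (SE 0.23, adjusted p = 0.0988). Its partner Cd79b (chr11:106311341-106314762, minus strand) was at 7.98, 8.55 and 6.73 CPM in the Zeb1 (+/-) libraries, against 12.1, 12.03 and 21.6 CPM in the wild-type libraries (log2 fold change −0.96, SE 0.22, adjusted p = 0.107). Both chains kept the groups apart without passing the threshold. Vpreb3, a gene of immature B cells, had 1, 0 and 0 counts in the Zeb1 (+/-) libraries and 0, 1 and 1 counts in the wild-type libraries and was not tested.

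Variable segments of the immunoglobulin loci were read as sums, because near-identical segments share reads. The 346 heavy, kappa and lambda variable segments in the table summed to 11.7, 11.7 and 10.7 CPM in the Zeb1 (+/-) libraries, against 19.3, 17.3 and 36.4 CPM in the wild-type libraries. As for Ighm and Igkc, the groups did not overlap and wild-type replicate 3 was highest. Counts fell on many segments. Heavy chain segments with at least 1 count numbered 39, 56 and 48 in the Zeb1 (+/-) libraries and 68, 57 and 61 in the wild-type libraries, of 183 in the table. They rest on 65, 162 and 114 counts in the Zeb1 (+/-) libraries and 222, 166 and 220 counts in the wild-type libraries. These numbers were not scaled for depth, and shared reads may spread over near-identical segments, so they do not compare the genotypes. The 170 variable segments of the T cell receptor had 24 counts over all 6 libraries. Igkc stood to the summed lambda constant regions Iglc1, Iglc2 and Iglc3 at 2.78, 2.70 and 2.66 in the Zeb1 (+/-) libraries, against 3.20, 2.75 and 2.19 in the wild-type libraries. Of the 7 tested genes in a list of immunoglobulin constant regions, which holds Ighm, Ighd and Igkc too, 0 passed the threshold by edgeR, 5 were lower at an unadjusted p under 0.05, DESeq2 called 2 lower, Igkc and Iglc2, the median log2 fold change was −1.02, and all 7 were highest in wild-type replicate 3. Ighe, the IgE heavy chain, was at 0 in every library.

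Of the 6 tested surface receptors of B cells, all but Cxcr5 were highest in wild-type replicate 3. Ms4a1, which encodes CD20 (chr19:11249675-11266241, minus strand), was at 11.5, 11.7 and 8.89 CPM in the Zeb1 (+/-) libraries, against 14.0, 12.6 and 29.7 CPM in the wild-type libraries (log2 fold change −0.79, SE 0.29, adjusted p = 0.27). Cd22, an inhibitory co-receptor that binds sialic acid (chr7:30865402-30880342, minus strand), was at 4.97, 3.83 and 3.90 CPM in the Zeb1 (+/-) libraries, against 6.01, 5.61 and 13.5 CPM in the wild-type libraries (log2 fold change −0.97, SE 0.32, adjusted p = 0.219). In both genes the groups did not overlap, but most of the distance between the means came from wild-type replicate 3. Fcmr, the Fc receptor for IgM, Ly6d, a surface protein of committed B lineage cells, and Fcer2a, the low-affinity IgE receptor CD23, had log2 fold changes of −0.94, −0.91 and −0.73 and did not pass the threshold. Cr2, the complement receptor CD21, had 7, 12 and 7 counts in the Zeb1 (+/-) libraries and 7, 5 and 10 counts in the wild-type libraries and was not tested.

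Cxcr5, the chemokine receptor that leads B cells to follicles (chr9:44511787-44561877, minus strand), was at 4.19, 3.21 and 3.41 CPM in the Zeb1 (+/-) libraries, against 7.03, 5.79 and 6.85 CPM in the wild-type libraries. The 3 wild-type libraries lay close together, and all were above all Zeb1 (+/-) libraries. Cxcr5 fell to 3.60 ± 0.515 CPM in Zeb1 (+/-) libraries, against 6.56 ± 0.672 CPM in wild-type libraries (SD, n = 3 each), a log2 fold change of −0.88 (95% interval −1.23 to −0.53, adjusted p = 0.0483). The call was lost with any 1 library left out (adjusted p between 0.063 and 0.234) and when the model held the structural RNA split, where wild-type replicate 3 is the only wild-type library compared (log2 fold change −0.95, adjusted p = 0.205). Cxcr5 shares 110 exon bases, 3.30% of its exons, with Bcl9l on the opposite strand, which was also lower in Zeb1 (+/-) libraries (log2 fold change −0.62, adjusted p = 0.0482); the strand setting of the counting is not given in the sources used here, and the part of shared reads was not tested.

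Among signalling proteins, Blk, a SRC family kinase of B cells, was at 2.68, 2.46 and 1.95 CPM in the Zeb1 (+/-) libraries, against 4.48, 3.87 and 6.85 CPM in the wild-type libraries. The groups did not overlap, and Blk had the lowest log2 fold change of the tested B cell genes, −1.09 (SE 0.24), without passing the threshold (adjusted p = 0.0895). For Fcrla, an Fc receptor-like protein kept inside B cells, the log2 fold change was −0.92 (adjusted p = 0.294).

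Bank1, an adaptor of the B cell receptor with ankyrin repeats (chr3:136053363-136326066, minus strand), was at 73.6, 80.3 and 74.8 CPM in the Zeb1 (+/-) libraries, against 72.0, 67.5 and 82.3 CPM in the wild-type libraries, and the groups overlapped. The means were 76.3 ± 3.59 CPM and 74.0 ± 7.56 CPM for Zeb1 (+/-) and wild-type (SD, n = 3 each), and the log2 fold change was 0.05 (95% interval −0.14 to 0.23, adjusted p = 0.826). Per length, Bank1 averaged 10.03 CPM per kb over the 6 libraries, next to 8.65 CPM per kb for Cd79a. Its ratio to Cd79a differed 3.10-fold between the libraries where it was highest and lowest, the widest range of the B cell genes compared in this way.

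The 4 transcription factors were also highest in wild-type replicate 3, though Ebf1 was there at only 1.07 times the next library. Spib, an ETS factor of B cells and plasmacytoid dendritic cells, was at 3.80, 3.42 and 3.29 CPM in the Zeb1 (+/-) libraries, against 5.62, 4.44 and 10.8 CPM in the wild-type libraries (log2 fold change −0.97, SE 0.30, adjusted p = 0.191). Pou2af1, the octamer co-activator of immunoglobulin genes, was at 3.46, 3.90 and 2.59 CPM in the Zeb1 (+/-) libraries, against 4.21, 4.62 and 10.9 CPM in the wild-type libraries (log2 fold change −0.95, SE 0.35, adjusted p = 0.27). In both the groups did not overlap, and neither passed the threshold. Nor did Pax5, at a log2 fold change of −0.91 (adjusted p = 0.159), or Ebf1, at −1.05 (adjusted p = 0.137).

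**Figure D3:**
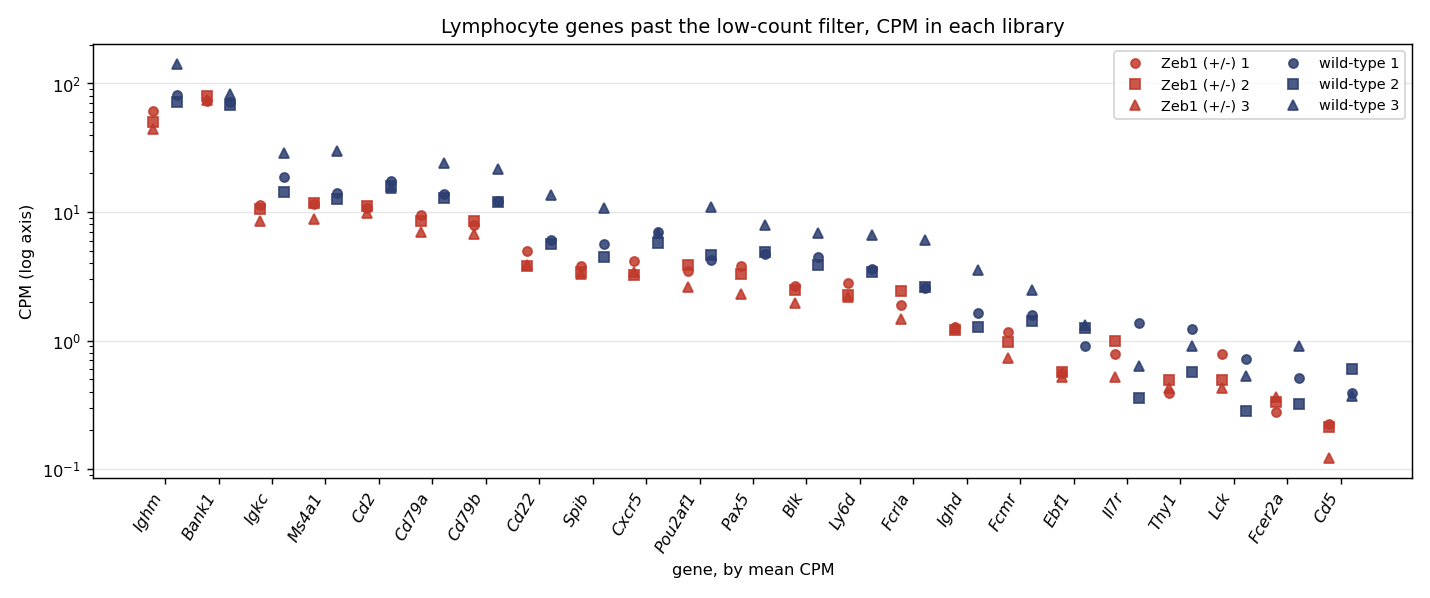
CPM of the 23 tested lymphocyte genes (x axis, by mean CPM) in each library, 1 point per library (y axis, log scale), with Zeb1 (+/-) libraries left of wild-type libraries. Most B cell genes peak together in wild-type replicate 3, with Cd79a at 24.0 CPM there, while Bank1 stays between 67.5 and 82.3 CPM in all 6 libraries.

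Most B cell genes peaked in the same library, while the lowest library differed between genes. Ighm was lowest in Zeb1 (+/-) replicate 3, and Cd22 in Zeb1 (+/-) replicate 2. Of the 18 tested, 17 were highest in wild-type replicate 3, beside 16.4% of all tested genes, and the exception was Cxcr5. In 15 of the 18 the level in wild-type replicate 3 was at least 1.5 times that of the next library, beside 1.01% of all tested genes. For Bank1 it was 1.02 times and for Ebf1 1.07 times that of the next library. Of 19 genes set against Cd79a, which were the other 17 tested B cell genes with Cd5 and Cd2, 10 kept their ratio to it within 1.5-fold over all 6 libraries and 15 within 2-fold. Ighm stood to Cd79a at 6.48, 5.94 and 6.32 in the Zeb1 (+/-) libraries, against 5.82, 5.60 and 5.94 in the wild-type libraries, while the level of Ighm itself ran between 44.4 and 142 CPM.

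Wild-type replicate 3 was then set apart from its group for all 18 tested B cell genes. In that library they were at 1.07 to 2.47 times the mean of wild-type replicates 1 and 2, with a median of 1.83. In Zeb1 (+/-) libraries their mean was 0.511 to 1.09 times that same mean, with a median of 0.682. The ratios of wild-type replicate 3 describe the peak by which the library was singled out and are no test of it. Over all tested genes the medians of these ratios were 0.997 and 1.00. With wild-type replicate 3 left out, the log2 fold change of Bank1, set aside after its values were seen, was 0.13. The other 17 tested B cell genes had negative ones, between −0.96 and −0.24 with a median of −0.57. Over all 18 the median was −0.56. Of all tested genes, 49.8% had a negative one. Among the 18, 13 were lower at an unadjusted p under 0.05, beside 8% of all tested genes, and adjusted p ran between 0.0836 and 0.75. Wild-type replicate 3 also differed from the other wild-type libraries in structural RNA, whose part in the B cell levels was not tested.

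**Figure D4:**
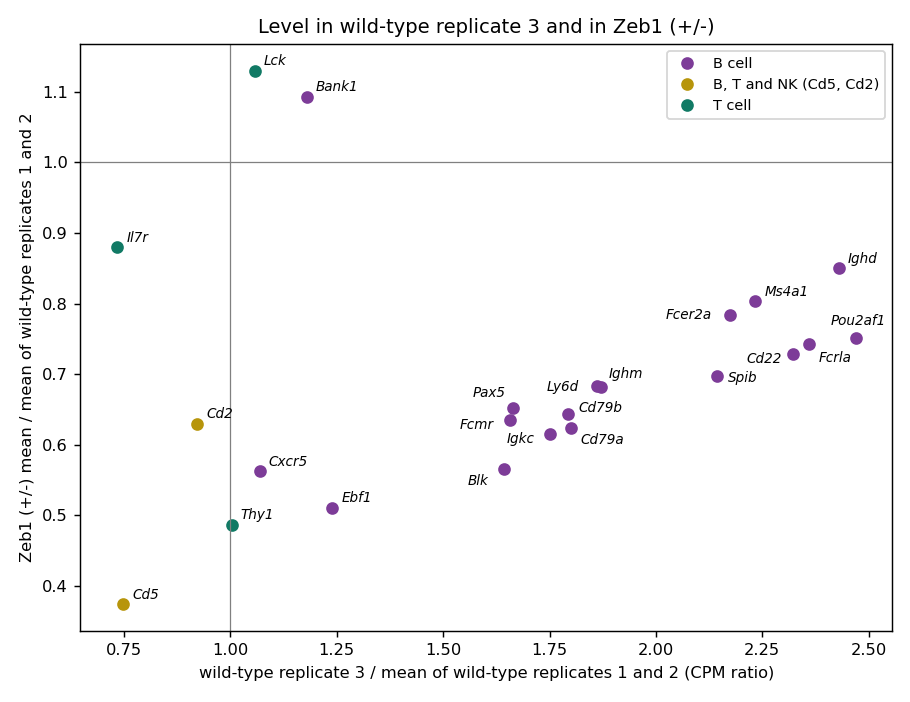
Ratio of wild-type replicate 3 to the mean of wild-type replicates 1 and 2 (x axis) and of the Zeb1 (+/-) mean to that same mean (y axis), for the 23 tested lymphocyte genes coloured by lineage. Most B cell genes lie to the lower right, near the medians of 1.83 and 0.682, whereas Cd2, Cd5, Cxcr5 and Thy1 lie low near or left of 1.0.

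Cd2 and Cd5 were lower in Zeb1 (+/-) libraries without the peak in wild-type replicate 3. Cd2, an adhesion receptor of T, NK and, in the mouse, B cells (chr3:101275899-101287939, minus strand), was at 10.7, 11.1 and 9.78 CPM in the Zeb1 (+/-) libraries, against 17.5, 15.9 and 15.4 CPM in the wild-type libraries. The groups did not overlap, and wild-type replicate 3 was the lowest of its group. Cd2 fell to 10.5 ± 0.673 CPM in Zeb1 (+/-) libraries, against 16.3 ± 1.08 CPM in wild-type libraries (SD, n = 3 each), a log2 fold change of −0.63 (95% interval −0.84 to −0.43, adjusted p = 0.0246). The call held without wild-type replicate 3 (adjusted p = 0.0423) and without Zeb1 (+/-) replicate 3 (adjusted p = 0.0456). It was lost with any other library left out, where adjusted p reached 0.111, and when the model held the structural RNA split, with wild-type replicate 3 as the only wild-type library compared (log2 fold change −0.55, adjusted p = 0.215).

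Per length Cd2 averaged 7.70 CPM per kb, next to 8.04 CPM per kb for Cd79b, whereas the tested T cell genes were at or below 0.224 CPM per kb. Its ratio to Cd79a differed 2.17-fold between libraries. Cd5, a surface regulator of T cells and of B-1 cells, had 4, 9 and 4 counts in the Zeb1 (+/-) libraries, against 13, 17 and 7 counts in the wild-type libraries. In CPM the groups did not overlap, and the log2 fold change of −1.31 (SE 0.43) did not pass the threshold (adjusted p = 0.218).

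T cell genes were at the edge of detection. Il7r, the interleukin-7 receptor, was at 0.782, 0.992 and 0.518 CPM in the Zeb1 (+/-) libraries, against 1.38, 0.355 and 0.637 CPM in the wild-type libraries (log2 fold change −0.08, SE 0.48, adjusted p = 0.949). Lck was at 0.782, 0.496 and 0.426 CPM in the Zeb1 (+/-) libraries, against 0.721, 0.284 and 0.531 CPM in the wild-type libraries (log2 fold change 0.06, SE 0.42, adjusted p = 0.956). For both the groups overlapped, and the 95% intervals of the log2 fold change, −1.16 to 0.99 for Il7r and −0.87 to 1.00 for Lck, held wide changes in either direction. Thy1, the surface protein CD90, was at 0.391, 0.496 and 0.426 CPM in the Zeb1 (+/-) libraries, against 1.23, 0.568 and 0.903 CPM in the wild-type libraries, with no overlap (log2 fold change −1.02, SE 0.35, adjusted p = 0.243). None of the 3 tested T cell genes was called by edgeR, and Thy1 alone had an unadjusted p under 0.05. DESeq2 did not call Il7r and gave Lck and Thy1 no adjusted p.

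The CD3 chains of the T cell receptor were counted in every library but too rarely to be tested. Cd3e had 6, 4 and 5 counts in the Zeb1 (+/-) libraries and 4, 4 and 6 counts in the wild-type libraries. Cd3d had 2, 11 and 6 counts in the Zeb1 (+/-) libraries and 18, 5 and 5 counts in the wild-type libraries. Cd3g had 3, 13 and 6 counts in the Zeb1 (+/-) libraries and 15, 8 and 5 counts in the wild-type libraries, so that Cd3d and Cd3g were highest in wild-type replicate 1, not in replicate 3. Cd247, the zeta chain, had 1 to 7 counts in Zeb1 (+/-) libraries and 3 to 10 counts in wild-type libraries, and 56.4% of its exon bases are shared with Pou2f1 on the opposite strand.

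NK cell genes were nearly absent from the counts. Nkg7, a granule protein of cytotoxic lymphocytes, had 3, 4 and 1 counts in the Zeb1 (+/-) libraries and 6, 3 and 1 counts in the wild-type libraries. Klrb1c, which encodes the NK1.1 antigen, had 0 counts in each Zeb1 (+/-) library and 1, 1 and 0 counts in the wild-type libraries. A count of 0 allows up to 3 counts, which is 0.167, 0.0709 and 0.0914 CPM in Zeb1 (+/-) replicates 1, 2 and 3. Gzma, the protease granzyme A, and Ncr1, the receptor NKp46, each had at most 1 count in any library. A difference between genotypes in NK cell genes was not detectable at this depth.

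The other genes of these lineages gave 0 calls by edgeR at the adjusted threshold. At an unadjusted p under 0.05, 8.26% of all tested genes were lower and 6.3% higher, and DESeq2 called 1.87% lower and 0.842% higher. Of 19 tested genes of the B cell receptor pathway, many of which macrophages also use, the median log2 fold change was −0.08. At the unadjusted threshold 5 were lower and 1 was higher, and DESeq2 called 2 lower. The smallest p among them was that of Pik3ap1, an adaptor to phosphoinositide 3-kinase, at a mean of 40.2 CPM in Zeb1 (+/-) libraries and 51.3 CPM in wild-type libraries (log2 fold change −0.35, adjusted p = 0.14).

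Of 22 tested B cell identity genes the median was −0.24, and 12 were highest in wild-type replicate 3. At the unadjusted threshold 11 were lower and 2 higher, and DESeq2 called 5 lower and 1 higher. H2-DMb2, a chain of the peptide exchanger H2-DM, had the smallest p, at 14.8 CPM in Zeb1 (+/-) libraries and 20.0 CPM in wild-type libraries (log2 fold change −0.43, adjusted p = 0.0988). The pair on the higher side were Cd24a, a glycosylated surface protein, at 192 CPM in Zeb1 (+/-) libraries and 109 CPM in wild-type libraries (log2 fold change 0.82, adjusted p = 0.0988), and Cd55, a complement regulator, at 11.4 CPM in Zeb1 (+/-) libraries and 7.86 CPM in wild-type libraries (log2 fold change 0.56, adjusted p = 0.158). Of these, DESeq2 called Cd55.

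Of 10 tested B-1 cell genes, a list that also holds Cd5 of the 33, the median was −0.15. At the unadjusted threshold 3 were lower, Cd5 among them, and 1 higher, and DESeq2 called 0, with no adjusted p for 2. Spn, which encodes CD43, had the smallest p among them, at 8.93 CPM in Zeb1 (+/-) libraries and 12.1 CPM in wild-type libraries (log2 fold change −0.45, adjusted p = 0.102). Of 7 tested genes of antibody-secreting cells the median was −0.37, 2 were lower and 1 higher at the unadjusted threshold, and DESeq2 called 1 lower, Sdc1. Of 8 tested T cell genes outside the 33 the median was −0.39, and 0 had an unadjusted p under 0.05; the smallest p was that of Cd28, a co-stimulatory receptor, at 3.72 CPM in Zeb1 (+/-) libraries and 5.70 CPM in wild-type libraries (log2 fold change −0.58, adjusted p = 0.449). Of 8 tested genes of NK and innate lymphoid cells the median was −0.31, and 1 was lower and 1 higher at the unadjusted threshold. DESeq2 called 0 of these T and NK lists and gave no adjusted p for 5 and 3 of their genes.

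Cd74, the invariant chain of MHC class II, which B cells and macrophages share, was at 1353, 1362 and 1277 CPM in the Zeb1 (+/-) libraries, against 1997, 1924 and 1801 CPM in the wild-type libraries (log2 fold change −0.52, adjusted p = 0.0187). Its lowest wild-type value was in replicate 3, where most B cell genes were highest. The class II genes H2-Aa, H2-Ab1 and H2-Eb1 were also lower in Zeb1 (+/-) libraries, and their lowest wild-type value was in replicate 3. Their log2 fold changes were −0.48, −0.47 and −0.54 (adjusted p = 0.0246, 0.0246 and 0.0185 by edgeR). H2-DMb2 and H2-Ob, which act on peptide loading of class II, were highest in wild-type replicate 3, at 22.2 and 13.5 CPM. That was 1.135 and 1.188 times the next library. For H2-Ob the log2 fold change was −0.28 (adjusted p = 0.338 by edgeR).

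Promoters were read for the lymphocyte genes that had a reference window. Windows of 300 bases, from 250 before to 50 after the start of the gene in RefSeq on GRCm38.p6, were held for 23 of the 33 genes. None was held for Cxcr5 and Cd2, the genes past the threshold, or for Ighm, Ighd, Igkc, Cd79b, Ms4a1, Ly6d, Blk and Thy1. ZEB1 binds the E-box CAGGTG, which reads CACCTG on the other strand and is itself a case of the general E-box CANNTG. EBF1 binds around the core CCCNNGGG, which reads the same on both strands. Only exact matches to these strings were searched for. A window without a match, such as that of Cd79a for the EBF1 core, may therefore still hold a site that differs from the string. The windows of Cd79a and Cd22, whose levels followed each other over the libraries, and of Bank1, whose level did not, are shown 5′ to 3′ along the gene, with the ZEB1 E-box and the EBF1 core in capitals. They lie at chr7:24897247-24897546 on the plus strand, chr7:30878979-30879278 on the minus strand and chr3:136326017-136326316 on the minus strand.
Cd79a: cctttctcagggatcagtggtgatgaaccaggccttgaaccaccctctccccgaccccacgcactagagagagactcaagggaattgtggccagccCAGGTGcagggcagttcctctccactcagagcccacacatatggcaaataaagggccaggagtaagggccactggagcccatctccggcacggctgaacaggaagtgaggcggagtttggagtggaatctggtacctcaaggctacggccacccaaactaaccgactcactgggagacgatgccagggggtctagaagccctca
Cd22: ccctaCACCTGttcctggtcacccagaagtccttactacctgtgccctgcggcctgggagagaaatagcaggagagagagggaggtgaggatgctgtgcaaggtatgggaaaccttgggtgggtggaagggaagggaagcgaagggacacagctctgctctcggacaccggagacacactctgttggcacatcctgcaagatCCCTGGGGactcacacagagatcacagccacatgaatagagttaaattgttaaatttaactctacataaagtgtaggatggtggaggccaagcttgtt
Bank1: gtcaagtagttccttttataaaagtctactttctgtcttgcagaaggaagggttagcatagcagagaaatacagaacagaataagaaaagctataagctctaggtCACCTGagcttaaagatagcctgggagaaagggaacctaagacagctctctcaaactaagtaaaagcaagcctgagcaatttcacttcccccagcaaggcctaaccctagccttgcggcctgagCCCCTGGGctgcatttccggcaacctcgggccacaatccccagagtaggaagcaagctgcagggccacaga
The ZEB1 E-box was in 7 of 15 windows of 12 B cell genes and in 7 of 12 windows of 10 T and NK cell genes, beside 20.2% of all 32851 windows. The general E-box was in 14 of 15 B cell windows and 12 of 12 T and NK cell windows, beside 72.3% of all windows. The EBF1 core was in 3 of 15 B cell windows and 0 of 12 T and NK cell windows, beside 13.7% of all windows. The octamer ATGCAAAT, ATTTGCAT on the other strand, was in 1 B cell window, that of Vpreb3, beside 1.74% of all windows. Cd79a, Cd22 and Bank1 each held a ZEB1 E-box, while their log2 fold changes were −1.02, −0.97 and 0.05. Fcrla, Fcmr, Fcer2a and the untested Cr2 also held one. The windows of Pax5, Ebf1, Pou2af1 and Spib held none, and their log2 fold changes were −0.91, −1.05, −0.95 and −0.97.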

How the data were processed

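The deposited table holds expected counts per gene for each library, whole numbers of unequal column totals, which the authors derived on GRCm38; per the submitters' processing notes the tools were STAR, RSEM and edgeR, without version or role. Annotation release and strand setting are not given in the sources used here. Coordinates and exon lengths came from GENCODE for GRCm38, in which 99.3% of identifiers matched with the version ignored. Of several identifiers with 1 symbol, the one with most counts kept it. Genes were tested with edgeR 4.0.16 in R 4.3.3: filterByExpr (minimum count 10, minimum total 15), TMM scaling, the quasi-likelihood test and Benjamini-Hochberg adjustment over 12940 genes with a threshold of 0.05. SE is the log2 fold change over the square root of F, with intervals at 95%. CPM used TMM-scaled totals. Alternatives were RLE factors, other filters, DESeq2 1.42.0, limma 3.58.1 (voom), the structural RNA split, the replicate number as a block and leaving out each library. The labels do not say that same-numbered libraries pair, and the main test did not pair them.

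The genes and lists were chosen with earlier results of these data known. Values per library are given for genes past the threshold, the 10 most abundant B cell genes, Cd5, Cd2 and the 6 most abundant T and NK genes. Each other list is named by its gene of smallest p. Blk, Ighd, Cd24a, Cd55, Ccr3, H2-Ob, H2-Aa, H2-Ab1, H2-Eb1, Cd74 and Bcl9l were added after values were seen. P-values measure the spread between pooled libraries, and floors at 0 counts cover counting error only. Sequences came from a RefSeq promoter table. The analysis was tested on simulated data.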

Additional observations from a re-analysis of the deposited data

How the results depend on the processing

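Changed genes numbered 76, and 522 without the filter on low counts, 351 by DESeq2, 31 when the model held the structural RNA split, 15 with a replicate block, and 5 to 127 with 1 library left out (5 without wild-type replicate 2). Changed B cell genes numbered 1, and 13 without the filter, 9 by DESeq2, 8 with the split and 0 with the replicate block or with any 1 library left out. Of Cd5 and Cd2, 1 was changed; this was 0 with the split or the replicate block and 0 to 1 with 1 library left out. T and NK cell genes gave 0 calls under each alternative run, with no adjusted p for 2 of 3 by DESeq2; with a filter of 1 CPM in 3 libraries none was left to test. The labels do not say that replicate numbers pair the samples, and the main model did not pair them. Deviations from the group means had correlations of −0.25, −0.0345 and −0.174 between same-numbered libraries. With 3 libraries per genotype these values cannot decide whether same-numbered libraries were handled together. The median log2 fold change of B cell genes was −0.93, and −1.48 with the split, where wild-type replicate 3 is the only wild-type library compared, and −1.09 to −0.56 with 1 library left out. That of Cd5 and Cd2 was −0.97, and −0.63 with the 1 CPM filter, where Cd2 alone was tested. Genes with overlapping groups changed sign: Bank1 to −0.11 with the split, and −0.0137 to 0.13 with 1 library left out (negative without wild-type replicate 2); Lck −0.24 to 0.47 (negative without Zeb1 (+/-) replicate 1, at −0.15, and without wild-type replicate 2); and Il7r to 0.10 with the replicate block, 0.27 with the split, 0.078 by limma-voom, and −0.45 to 0.69 with 1 library left out (positive without Zeb1 (+/-) replicate 3, at 0.15, and without wild-type replicate 1). Over single genes, 238 values kept direction and side of the threshold, 28 newly passed it, 14 no longer passed it and 9 changed sign. The cause was not tested. limma-voom and the set of B cell genes without Bank1 were chosen after seeing the data. Depth limits the T and NK cell genes, most of which had under 20 counts per library.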

Other observations

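Markers of macrophages and of other cell types outside the 33 genes gave 0 calls by edgeR. Among 8 tested genes of large peritoneal macrophages the median log2 fold change was 0.19, 4 were higher at an unadjusted p under 0.05, and DESeq2 called 3 higher: Garnl3, Gata6 and Icam2. Among 10 tested core macrophage genes the median was 0.03, 2 were higher at the unadjusted threshold, and DESeq2 called 1 higher, Adgre1 (log2 fold change 0.26, adjusted p = 0.111 by edgeR). DESeq2 also called Hdc higher and Batf3 lower. Hdc, which makes histamine, was at a mean of 95.9 CPM in Zeb1 (+/-) libraries and 58.1 CPM in wild-type libraries (log2 fold change 0.72, adjusted p = 0.059). It is on a list of 14 eosinophil and mast cell genes, of which 8 were tested. At the unadjusted threshold Ccr3 and Hdc were higher and 1 gene was lower. The eosinophil granule genes Prg2 and Epx and the mast cell protease Tpsab1 were at 0 in every library. Garnl3, listed as a gene of large peritoneal macrophages, was at a mean of 254 CPM in Zeb1 (+/-) libraries and 154 CPM in wild-type libraries (log2 fold change 0.72, adjusted p = 0.112). Il18rap, a subunit of the interleukin-18 receptor, was at 4.07 CPM in Zeb1 (+/-) libraries and 2.44 CPM in wild-type libraries (log2 fold change 0.73, adjusted p = 0.102). Batf3, a factor of conventional dendritic cells, was at 7.56 CPM in Zeb1 (+/-) libraries and 11.5 CPM in wild-type libraries (log2 fold change −0.61, adjusted p = 0.102). Sdc1, which encodes CD138 and which DESeq2 also called, was at 10.3 CPM in Zeb1 (+/-) libraries and 15.3 CPM in wild-type libraries (log2 fold change −0.57, adjusted p = 0.125). Mmp8, a neutrophil collagenase, was at 0.804 CPM in Zeb1 (+/-) libraries and 0.508 CPM in wild-type libraries (log2 fold change 0.65, adjusted p = 0.39). Hba-a1, an alpha globin, was at a mean of 4.98 CPM in Zeb1 (+/-) libraries and 18.5 CPM in wild-type libraries (log2 fold change −1.83, adjusted p = 0.317). The groups overlapped, at 0.838, 5.39 and 8.71 CPM in the Zeb1 (+/-) libraries, against 41.3, 7.70 and 6.37 CPM in the wild-type libraries. The wild-type mean thus rested on replicate 1.

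Genes that peak in wild-type replicate 3 were then searched for in the whole table, after their values were seen. Of 10805 tested genes with a mean of at least 2 CPM, 34 were at least 1.5 times as high there as in the next library, and 12 of these were among the 33 lymphocyte genes. Others were B cell genes: Iglc2 at 2.28 times, Mzb1, a chaperone of antibody secretion, at 2.16 times, and Siglecg at 1.79 times the next library. Some are on none of the lists. Gas6, a ligand of TAM receptors, was at 3.69, 4.21 and 6.37 CPM in the Zeb1 (+/-) libraries, against 9.31, 9.09 and 16.8 CPM in the wild-type libraries, and Srpx, a sushi repeat protein, was at 9.71, 7.75 and 9.96 CPM in the Zeb1 (+/-) libraries, against 11.2, 11.8 and 21.8 CPM in the wild-type libraries. Whether they come from the same cells as the B cell transcripts was not tested.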
